A study of Mus musculus with 7 samples.

Results

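The regions described here are narrow peaks of H3K27me3, trimethylation of lysine 27 on histone H3, that lay between genes and were called in control cells without any called counterpart in Ring1a/b 2KO cells. They were chosen from the control peak list by 3 criteria. Each was under 8000 bp wide, shared 0 bp with the 2KO peak list, and overlapped no RefSeq protein-coding gene body extended by 1 kb on both sides. Of 3631 control peaks 505 met all of these (13.9%), and they covered 1.85 Mb of the 24.8 Mb under control peaks. The values that chose them are the presence of a peak in either list, its width and its distance to a gene, so these are given as descriptions and were not tested.

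The mark was mapped by ChIP-seq, the sequencing of DNA bound to an immunoprecipitated histone, in progenitors of the epidermis from mice at postnatal day 0. Back-skin epidermis was separated from dermis, and interfollicular cells were sorted by flow cytometry for EpCAM, Sca1 and high α6-integrin. Ring1a/b 2KO cells, which lack both Ring1a and Ring1b, and control cells had 2 labelled immunoprecipitation libraries and 1 peak list each. How the knockout was made is not given in the sources used here. For the 2KO libraries the titles say H3K27me1, but the antibody given and the name of the list say H3K27me3, which was used here. Libraries of Eed cKO cells and the inputs had no list and were not analysed here. None of 15 genes that mark basal epidermal cells, such as Krt5, Krt14 and Trp63, had a peak within 1 kb of an end in either list. No peak described here had one of them as its nearest gene.

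H3K27me3 is laid down by Polycomb repressive complex 2, and genes under it are usually silent. Ring1a and Ring1b, encoded by Ring1 and Rnf2, are alternative ubiquitin ligase subunits of Polycomb repressive complex 1, whose mark on histone H2A can recruit further Polycomb repressive complex 2. Away from genes, the mark is known at silent distal regulatory elements, at promoters of long non-coding RNA (lncRNA) genes and as flanks of larger domains.

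Some of these peaks held the start of a non-coding gene, and their promoter windows are shown to give the kind of sequence under the mark. The window runs from 250 bases before to 50 bases after an annotated start, as given by RefSeq for GRCm38.p6, the build also called mm10. Sequences read 5′ to 3′ on the strand of the gene, and CpG dinucleotides are in capitals. The first is a window of Tunar, an RNA gene of pluripotent and neural cells (chr12:105336743-105337042, + strand). The second is that of Cistr, an RNA gene linked to cartilage formation (chr15:102746860-102747159, - strand). The third belongs to Mir1a-1hg, the host gene of a muscle microRNA (chr2:180385354-180385653, + strand). The 4th and 5th are windows of lncRNA genes known only by a number, inside the gene-free intervals that held the most of these peaks: Gm34503 between Trps1 and Eif3h (chr15:51591761-51592060, - strand) and Gm11729 between Septin9 and Tnrc6c (chr11:117414139-117414438, + strand).
Tunar: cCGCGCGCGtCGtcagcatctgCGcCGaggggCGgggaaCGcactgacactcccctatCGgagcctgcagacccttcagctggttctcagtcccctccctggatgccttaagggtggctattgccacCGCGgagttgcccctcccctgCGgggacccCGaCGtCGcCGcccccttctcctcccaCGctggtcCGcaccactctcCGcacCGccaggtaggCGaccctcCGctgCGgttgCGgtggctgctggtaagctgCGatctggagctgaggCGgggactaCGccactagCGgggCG
Cistr: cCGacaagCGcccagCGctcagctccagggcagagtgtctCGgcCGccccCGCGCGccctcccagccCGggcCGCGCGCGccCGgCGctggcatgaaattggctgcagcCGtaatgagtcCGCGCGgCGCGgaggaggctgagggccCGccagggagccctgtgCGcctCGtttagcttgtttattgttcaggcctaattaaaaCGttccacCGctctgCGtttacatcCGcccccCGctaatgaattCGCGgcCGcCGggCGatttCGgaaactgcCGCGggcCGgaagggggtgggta
Mir1a-1hg: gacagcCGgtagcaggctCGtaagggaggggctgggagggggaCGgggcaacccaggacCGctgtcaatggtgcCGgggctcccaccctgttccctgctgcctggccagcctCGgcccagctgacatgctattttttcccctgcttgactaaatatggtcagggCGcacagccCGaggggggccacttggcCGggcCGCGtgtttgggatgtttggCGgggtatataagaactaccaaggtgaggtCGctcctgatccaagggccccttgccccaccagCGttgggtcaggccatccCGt
Gm34503: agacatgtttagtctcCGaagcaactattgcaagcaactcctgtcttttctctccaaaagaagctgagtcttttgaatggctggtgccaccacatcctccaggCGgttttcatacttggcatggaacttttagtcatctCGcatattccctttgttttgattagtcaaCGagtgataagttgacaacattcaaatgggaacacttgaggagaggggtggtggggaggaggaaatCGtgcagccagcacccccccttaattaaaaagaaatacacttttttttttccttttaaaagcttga
Gm11729: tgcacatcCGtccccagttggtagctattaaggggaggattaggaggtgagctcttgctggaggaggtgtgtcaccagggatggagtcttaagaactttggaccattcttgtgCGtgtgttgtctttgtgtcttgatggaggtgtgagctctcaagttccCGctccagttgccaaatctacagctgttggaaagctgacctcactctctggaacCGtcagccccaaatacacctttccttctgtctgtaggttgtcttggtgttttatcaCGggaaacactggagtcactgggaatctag
The peak over Mir1a-1hg also held the mature 5p strand of the microRNA, mmu-miR-1a-1-5p (chr2:180389057-180389079, + strand), the only mature strand shown here. It is printed with its seed, bases 2 to 8, in capitals.
mmu-miR-1a-1-5p: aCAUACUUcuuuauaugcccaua

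The windows differed in CpG content. The window shown for Tunar had 30 CpG dinucleotides in 300 bases and an observed to expected CpG ratio of 0.833. Another annotated start of Tunar in the same peak had a poorer window, with 11 and a ratio of 0.421. Cistr had 38 and a ratio of 1.10. Mir1a-1hg had 15 and a ratio of 0.485. Gm34503 and Gm11729 had 5 each, with ratios of 0.366 and 0.271. Among these 5 windows, Tunar and Cistr were the richest in CpG, and Gm34503 and Gm11729 the poorest. Other windows in intervals of many peaks had more CpG dinucleotides than these last. Gm35170, also between Septin9 and Tnrc6c, had 10 and a ratio of 0.414. Gm46645, between Tle4 and Psat1, had 11 and a ratio of 0.498. In all, the control-only intergenic peaks contained whole promoter windows of 34 lncRNA genes. Taking the window richest in CpG for each gene, their median observed to expected ratio was 0.359 (quartiles 0.218 and 0.495). That of 22 lncRNA genes under narrow shared peaks between genes was 0.337 (0.213 and 0.542), and that of 455 under any control peak was 0.533 (0.326 and 0.769). For 9059 lncRNA genes with a window under no peak of either list it was 0.249 (0.135 and 0.421). A CpG-rich window, with a ratio of at least 0.6 and a GC share of at least 50%, was found for 4 of 34 genes (11.8%, 95% Wilson interval 4.67 to 26.6) under the control-only intergenic peaks, for 2 of 22 (9.09%, 2.53 to 27.8) under narrow shared peaks between genes, for 184 of 455 (40.4%, 36.0 to 45.0) under control peaks of any kind, and for 1264 of all 9520 (13.3%). The intervals cover counting error alone, here and throughout.

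The loci with a studied RNA lay between 198.2 and 544.6 kb from a 2KO peak, against a median of 325.5 kb for all 505 peaks. The peak at Tunar (chromosome 12, 105336003 to 105339246, 3.24 kb) was 113.3 kb from its nearest protein-coding gene, Tcl1, and 544.6 kb from the nearest 2KO peak. The peak at Cistr (chromosome 15, 102742819 to 102748625, 5.81 kb) lay 20.6 kb from Calcoco1, on the side of the HoxC cluster, and 198.2 kb from a 2KO peak. It also held the start of Gm36560. The peak at Mir1a-1hg (chromosome 2, 180382789 to 180389278, 6.49 kb) lay 47.3 kb from Gata5, a cardiac and endodermal factor gene marked in the control list only, and 256.7 kb from a 2KO peak. A gene is called marked here when a peak overlaps either of its ends extended by 1 kb.

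Overlap with non-coding genes was near that of control peaks as a whole. Of 505 control-only intergenic peaks, 147 overlapped an annotated gene other than a protein-coding one (29.1%, 25.3 to 33.2), 130 of them a lncRNA gene (25.7%, 22.1 to 29.7), 10 a pseudogene and 1 a microRNA gene. Over all 3631 control peaks the shares were 26.2% (24.8 to 27.6) for any such gene and 23.6% (22.2 to 25.0) for lncRNA genes. Among 270 narrow shared peaks between genes they were 33.7% (28.3 to 39.5) for any such gene and 26.3% (21.4 to 31.9) for lncRNA genes. Wide control-only peaks between genes overlapped a lncRNA gene in 38 of 99 cases (38.4%, 29.4 to 48.2).

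The comparison of the 2KO list with the control list addresses where the mark was still called once both Ring1 proteins were missing. Over the whole list 52.6% of 3631 control peaks had no 2KO peak, and among 2819 narrow control peaks 58.2% had none. Between genes this held for 505 of 775 narrow control peaks (65.2%, 61.7 to 68.4), and at or in genes for 1136 of 2044 (55.6%, 53.4 to 57.7). For wide control peaks between genes it was 99 of 167 (59.3%, 51.7 to 66.4). The peaks between genes made up 30.8% of all 1641 narrow control peaks without a 2KO peak. Because a single list stood for each genotype, no replicate error could be had, and neither the genotypes nor the classes of peaks was tested against the other. A position without a called peak may still carry the mark, and the depth of the libraries is unknown.

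The control-only peaks share 0 bp with 2KO peaks by the rule, whereas shared peaks varied in how far they were covered. Of the 270 narrow shared peaks between genes, 140 lay under 2KO peaks over their whole length, 193 over at least 90% of it, 265 over at least 50% and 5 over less. The least covered, 34.1 kb from Zfhx3 (chromosome 8, 108238295 to 108245232), was under a 2KO peak over 25.5% of its length. On the other side, the control-only intergenic peak closest to a 2KO peak lay 642 bp from one, next to the homeobox gene Nkx6-3 (chromosome 8, 23161401 to 23165618). The limits on width and gene distance cut through continuous ranges. The widest peak inside the limit measured 7963 bp, 153.7 kb from Itga1, and the narrowest outside it measured 8025 bp, near Lnpk. The peak nearest to a gene lay 1018 bp from Zbtb7c, and the farthest one left out lay 898 bp from Gm960.

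Widths were spread over the whole range allowed. The median was 3365 bp (quartiles 2218 and 4865 bp), and the narrowest peak measured 607 bp. Narrow shared peaks between genes had a median of 3927 bp (2592 and 5079 bp), narrow control-only peaks inside gene bodies 3232 bp and narrow control-only peaks at gene ends 3781 bp. In classes of 1 kb, 111 peaks fell between 3 and 4 kb, the fullest class, and 22 between 7 and 8 kb. The share of narrow control peaks between genes without a 2KO peak was 75.7% (67.1 to 82.6, n = 115) at 1 to 2 kb and 56.4% (41.0 to 70.7, n = 39) at 7 to 8 kb, with no even course between: it was 54.2% (45.7 to 62.5, n = 131) at 4 to 5 kb and 64.8% (54.4 to 73.9, n = 88) at 5 to 6 kb.

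The 10 widest control-only intergenic peaks measured between 7.51 and 7.96 kb. They lay next to Itga1, Zc3h12c, Abcc4, Rap2b, Foxb1, Zfhx3, Sem1, Msx1, Hs3st3b1 and Flrt2. Foxb1 encodes a forkhead factor of the developing brain, Msx1 a homeobox factor of limb, tooth and hair, and Zfhx3 a large zinc finger homeodomain factor of neurons. The peak near Itga1 shared its gene-free interval with Isl1, a LIM homeobox gene of motor neurons, heart and Merkel cells, whose end was 1035 kb away and marked in both lists. Of these 10, the peak near Msx1 was 19.0 kb from a 2KO peak, and the others between 293.5 and 3891 kb.

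Many of these peaks lay far from any protein-coding gene. The median distance to the nearest one was 36.8 kb (quartiles 12.6 and 113.3 kb), against 21.0 kb (7.82 and 46.7 kb) for narrow shared peaks between genes and 8.09 kb (3.15 and 23.5 kb) for the 253 narrow 2KO-only peaks between genes. Wide control-only peaks between genes lay farther still, at a median of 101.2 kb (31.1 and 186.7 kb). Of these wide peaks 49.5% lay within 100 kb, against 74.1% of the narrow control-only ones. A distance over 100 kb was found for 131 of 505 control-only intergenic peaks (25.9%, 22.3 to 29.9), and 89.6% (85.4 to 92.7) of the narrow shared ones lay within 100 kb. Over classes of distance, the share of narrow control peaks between genes without a 2KO peak was 57.0% (46.8 to 66.6, n = 93) at 1 to 5 kb, 50% (39.8 to 60.2, n = 88) at 5 to 10 kb, 61.0% (52.0 to 69.3, n = 118) at 10 to 20 kb, 61.2% (54.3 to 67.7, n = 201) at 20 to 50 kb, 70.7% (61.8 to 78.2, n = 116) at 50 to 100 kb and 82.8% (75.8 to 88.0, n = 145) at 100 to 500 kb. It was 78.6% (52.4 to 92.4) at greater distances, where 11 of 14 peaks had no 2KO peak. Both the 2KO overlap and the gene distance entered the choice of peaks, and peaks of 1 gene-free interval are not independent, so these shares are a description and the classes were not tested. The widths of the control-only peaks in these classes had medians between 2.80 and 4.11 kb.

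**Figure D1:**
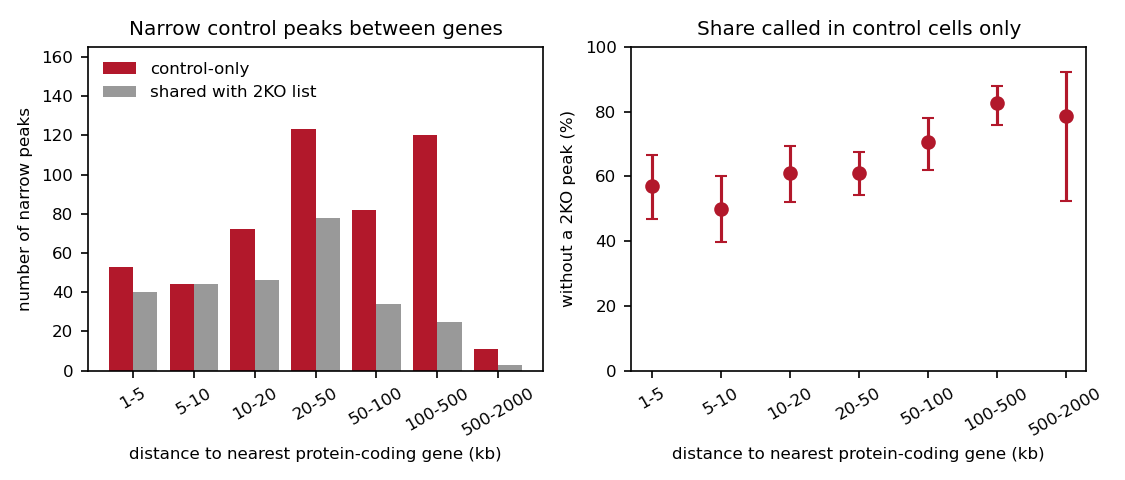
Narrow control peaks between genes by distance to the nearest protein-coding gene in kb. Left, the number of control-only and shared peaks; right, the percent without a 2KO peak with 95% Wilson intervals. The share is 57.0% at 1 to 5 kb and 82.8% at 100 to 500 kb.

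The 10 peaks farthest from genes lay in gene deserts of chromosomes 1, 3, 7, 10, 11, 12, 15 and 19. The farthest (chromosome 10, 16095185 to 16102280, 7.10 kb) was 1324 kb from Nmbr, a neuropeptide receptor gene marked in both lists, and 1621 kb from Cited2, which encodes a transcriptional coregulator. The nearest 2KO peak and the nearest other control peak were both 1333 kb away. A peak of 2.12 kb between Fstl5 and Rapgef2 (chromosome 3, 77743166 to 77745283) was the most isolated of these 10, with the next control peak 4683 kb away. One of 4.08 kb lay 888.0 kb from the proto-oncogene Myc (chromosome 15, 62878347 to 62882425), with another control peak 4.58 kb away and no 2KO peak within 2034 kb. Others lay between Tmem182 and the neural factor gene Pou3f3, between Arrdc4 and Nr2f2, and beside Tenm2, Flrt2, Mctp2 and Psat1.

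Some of these peaks lay beside other H3K27me3 peaks and others were isolated. The nearest 2KO peak was at a median of 325.5 kb (quartiles 60.0 and 988.1 kb), and 24 peaks (4.75%, 3.21 to 6.97) lay within 5 kb of one. No 2KO peak lay within 100 kb of 353 peaks (69.9%, 65.8 to 73.7), and none within 1 Mb of 123 (24.4%, 20.8 to 28.3). Such distances were shared by other control-only classes. The median to a 2KO peak was 336.1 kb for narrow ones at gene ends and 214.0 kb for those inside gene bodies. For wide ones between genes it was 452.2 kb. From the control-only intergenic peaks, the nearest other control peak was at a median of 22.6 kb (4.06 and 173.4 kb), and for narrow shared peaks between genes at 25.1 kb (5.20 and 107.0 kb). Of the 505 peaks, 238 had another control peak within 20 kb (47.1%, 42.8 to 51.5). In these 238 cases that neighbour had no 2KO peak either in 182 (76.5%, 70.7 to 81.4), and it was 8 kb wide or more in 86. Over all control peaks 52.6% had no 2KO peak. In 111 of the 238 cases the neighbour was itself a control-only intergenic peak, which has no 2KO peak by the rule. The 76.5% is thus in part set by the choice of peaks. At the other end, 168 peaks had no other control peak within 100 kb (33.3%, 29.3 to 37.5), and 163 of these had no 2KO peak within 100 kb either. Control peaks as a whole had fewer neighbours: another control peak lay within 100 kb of 66.7% (62.5 to 70.7) of the control-only intergenic peaks, of 74.4% (68.9 to 79.3) of the narrow shared ones and of 54.7% (53.0 to 56.3) of all control peaks.

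**Figure D2:**
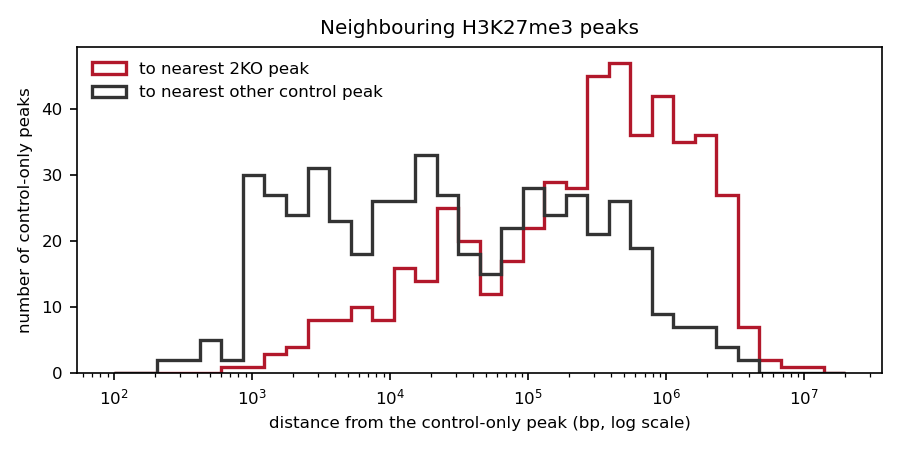
Distances from the 505 control-only intergenic peaks to the nearest 2KO peak and to the nearest other control peak, on a log scale in bp, as numbers of peaks per bin. The medians are 325.5 kb for 2KO peaks and 22.6 kb for other control peaks.

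The gene nearest to a control-only intergenic peak often carried a peak of its own. For 176 of 505 peaks the nearest protein-coding gene was marked in the control list (34.9%, 30.8 to 39.1), compared with 10.1% of all 21631 protein-coding genes. It was marked in the control list only for 113 peaks (22.4%, 19.0 to 26.2), in both lists for 63 (12.5%, 9.87 to 15.6), in the 2KO list only for 1 and in neither for 328 (65.0%, 60.7 to 69.0). Over all genes these shares were 4.48%, 5.59%, 1.04% and 88.9%. Narrow shared peaks between genes had the reverse balance, with 17 of 270 next to a gene of the control list only (6.30%, 3.97 to 9.85) and 71 next to one marked in both (26.3%, 21.4 to 31.9). Wide control-only peaks between genes had 30 of 99 (30.3%, 22.1 to 40.0) and 5 of 99 (5.05%, 2.18 to 11.3). Both the peaks and the gene marks were read from the same 2 lists, so these shares are not independent of the choice of peaks. Several peaks can share a gene: the 505 had 386 different nearest genes, and the 113 had 72.

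**Figure D3:**
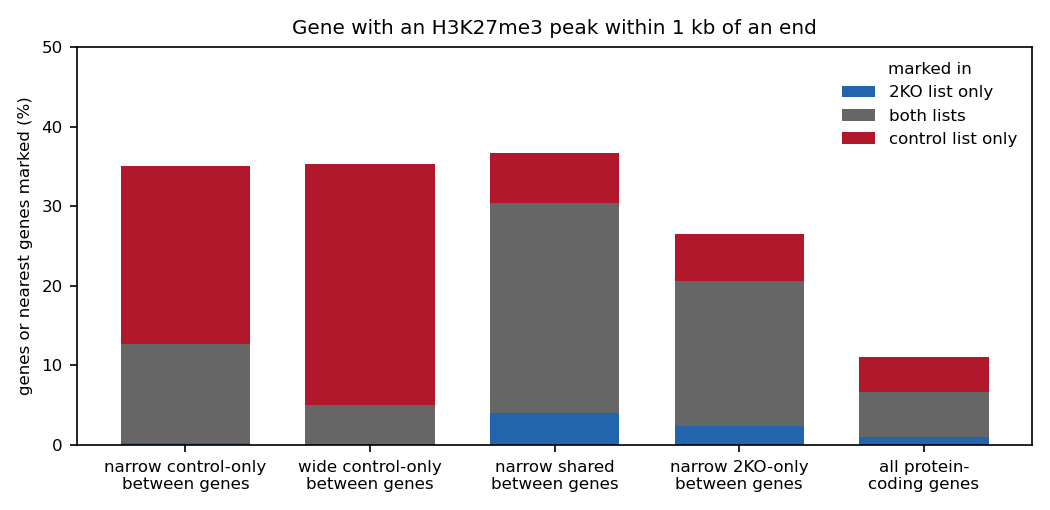
Percent of peaks whose nearest protein-coding gene has an H3K27me3 peak within 1 kb of an end, split by list, for 4 classes of peaks between genes, and the same percent over all protein-coding genes. Control list only takes 22.4% for the narrow control-only class and 6.30% for the narrow shared class.

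Where the nearest gene was marked in both lists, the control-only peak lay at a median of 22.8 kb from a 2KO peak (quartiles 8.08 and 40.5 kb). Where it was marked in the control list only, that distance was 445.8 kb (142.2 and 988.1 kb), and the next control peak was at 5.91 kb. Where it was marked in neither list, the median distance to a 2KO peak was 423.5 kb (119.8 and 1228 kb). The next control peak was then at 85.7 kb (7.77 and 312.2 kb). A gene marked in a list has a peak of that list within 1 kb of an end by definition. The short distances to peaks of that list thus follow in part from the grouping. Both groups at marked genes had a median width of 3.83 or 3.84 kb, and peaks at unmarked genes one of 3.22 kb.

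The peaks were gathered in some gene-free intervals. An interval here is the space between neighbouring protein-coding genes, each extended by 1 kb. Of 16527 intervals 354 held at least 1 control-only intergenic peak, and 33 held 3 or more, which together had 135 of the 505 peaks (26.7%, 23.1 to 30.8). Intervals with such a peak had a median length of 164.2 kb, and all intervals one of 21.0 kb. In 259 of the 354 (73.2%, 68.3 to 77.5), and in 24 of the 33, no 2KO peak was called anywhere in the interval. Of all 1867 intervals with any control peak, 780 had none (41.8%, 39.6 to 44.0). The share for intervals with these peaks is in part set by the choice of peaks without 2KO overlap.

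The interval between Trps1 and Eif3h on chromosome 15 (50891632 to 51785562, 893.9 kb) held the most. Trps1 encodes a GATA-type zinc finger repressor of hair and skeletal development, and Eif3h a translation initiation subunit. In 2KO cells 0 peaks were called in this interval, against 22 in control cells. Of these 22, 12 were narrow control-only intergenic peaks, 9 were wide ones and 1 reached Trps1 itself. The control peaks covered 231.4 kb, or 25.9% of the interval. The narrow ones measured between 1.26 and 7.44 kb and lay from 64.1 to 702.8 kb beyond the edge of Trps1, between and after the wide ones, of which the widest measured 35.9 kb. Trps1 was marked in the control list only, and Eif3h in neither list.

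The interval between Foxo1 and Cog6 on chromosome 3 (52351110 to 52981122, 630.0 kb) held 0 peaks in the 2KO list and 13 in the control list. Foxo1 encodes a forkhead factor of insulin and stress signalling, marked in the control list only. Of the 13, 11 were narrow control-only peaks between 1.92 and 7.49 kb, and the other two were wide, at 10.7 and 40.9 kb. The control peaks covered 93.8 kb (14.9%). A run of 4 narrow peaks (52775074 to 52825545) lay apart from the wide ones.

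Between Septin9, which encodes a cytoskeletal GTPase, and Tnrc6c on chromosome 11 (117363326 to 117652702, 289.4 kb), the 2KO list had 1 peak of 2.91 kb and the control list 10 peaks. The 2KO peak lay inside a control peak of 9.10 kb. Of the control peaks 8 were narrow and control-only, and 6 of these formed the longest run of the genome (117383712 to 117442219, 58.5 kb), in which neighbours were no more than 20 kb apart. The shared control peak lay within this run, between its first and second narrow peaks. Neither Septin9 nor Tnrc6c was marked in either list.

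**Figure D4:**
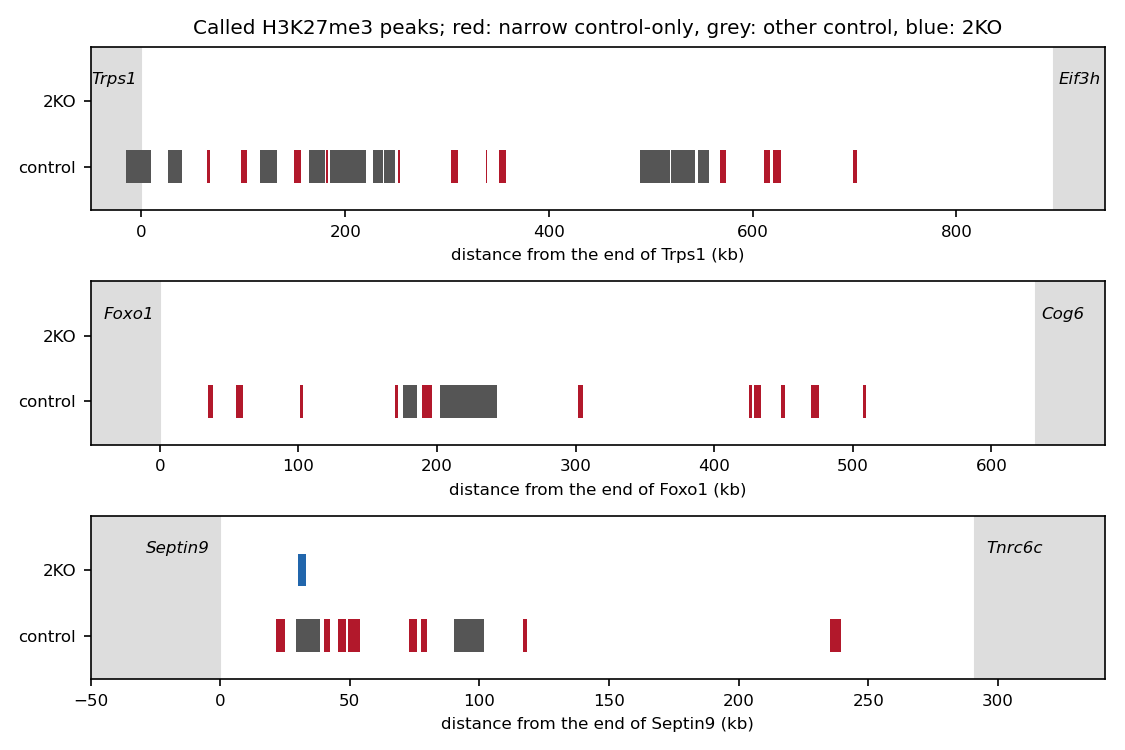
Called H3K27me3 peaks in the 3 gene-free intervals with the most narrow control-only peaks, 2KO track above control track, by distance in kb from the edge of the left-hand gene. Red bars are narrow control-only peaks, grey bars other control peaks, blue bars 2KO peaks, and grey shading the flanking genes; the first and second intervals hold 0 2KO peaks.

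Next in number came the intervals between Tle4 and Psat1 on chromosome 19, with 6 narrow control-only peaks, and between Nfil3 and Ror2 on chromosome 13, with 5. Tle4 encodes a Groucho-type corepressor, Ror2 a receptor for Wnt5a and Nfil3 a basic leucine zipper factor. In the first, 1305 kb long, 0 peaks were called in 2KO cells and 7 in control cells, with 2.32% of its length covered. These control peaks lay between 17.2 and 920.6 kb from the edge of Tle4. In the second, 0 were called in 2KO cells and 8 in control cells, within 124.4 kb with 46.4% covered. Nfil3 and Ror2 were both marked in the control list only, and Tle4 and Psat1 in neither list. These 5 intervals together held 42 of the 505 peaks. Joined within 20 kb, 143 of the 505 peaks lay in runs of 2 or more (28.3%, 24.6 to 32.4), of which 50 were pairs, 7 had 3 peaks, 4 had 4 and 1 had 6. Of the runs of 4, the one next to Ap3b1, a gene of vesicle sorting, spanned 35.1 kb (chromosome 13, 94614746 to 94649814) with 17.9 kb under its peaks.

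Grouped by the kind of gene nearest to them, the peaks lay beside homeobox, Tbx, Gata, Fox and Sox genes more often than beside genes of differentiated neurons. A nearest gene gives a position and not a target. Homeobox genes of the Pax, Lhx, Dlx, Msx, Irx, Nkx and sine oculis families were nearest to 23 of the 505 peaks (4.55%, 3.05 to 6.74), with 14 different genes, whereas these families make up 0.259% of protein-coding genes and were nearest to 2.51% of all control peaks and 2.96% of the narrow shared ones between genes. Other developmental homeobox genes were nearest to 20 (3.96%), the same share as the 3.97% of all control peaks. Tbx, Gata, Fox and Sox genes were nearest to 22 (4.36%, 2.89 to 6.51) and to 2.64% of all control peaks. In the narrow shared class these shares were 4.07% and 4.44%. By contrast, ion channel genes were nearest to 2 of the 505 peaks (0.396%, 0.109 to 1.43) and to 2.84% of all control peaks, and neurotransmitter receptor genes to 2 and 1.98%. Axon guidance and synaptic adhesion genes were nearest to 3 and 2.23%. In the narrow shared class between genes the shares of these groups were also low, at 0.370%, 0.741% and 1.11%.

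The Iroquois homeobox genes, which pattern limb, heart and nervous system, gave an example. The interval between Irx3 and Irx5 on chromosome 8 (91802655 to 92356795) held 0 2KO peaks and 4 control peaks, each of them narrow and control-only, and a lncRNA gene of the interval, Gm28516, started inside a peak of 3.96 kb (92021421 to 92025377). The control peaks covered 3.37% of its 554.1 kb, and Irx3 and Irx5 were marked in neither list. One peak (91803405 to 91809377, 5.97 kb) lay 1.75 kb from Irx3, and the nearest 2KO peak was 1995 kb away. Beyond Irx5, a peak of 4.10 kb lay 1.11 kb from Irx6 (92669078 to 92673179), which was marked in the control list only.

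Hox genes were nearest to 5 of the peaks (0.990%), against 0.358% of all control peaks, in different settings. Between Hoxb13 and Hoxb9 on chromosome 11 (96197611 to 96270329), 4 narrow control-only peaks of 1.43 to 3.97 kb formed a run from 96210656 to 96236089, between 3.45 and 25.7 kb from the nearest 2KO peak, and both genes were marked in both lists. The 5th lay 46.1 kb from Hoxc4 (chromosome 15, 103082964 to 103088226, 5.26 kb), a gene marked in neither list, in an interval with 0 2KO peaks and 2 control peaks, and its nearest 2KO peak was 129.3 kb away. At Hoxb13, the first of the run followed a control peak of 48.7 kb at a gap of 747 bp. Between Calcoco1 and Hoxc13 on chromosome 15, the interval with Cistr, 0 2KO peaks were called and 7 control peaks, 3 of them narrow and control-only, with 94.9 kb covered.

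Sox9, a factor gene of hair follicle stem cells and cartilage, had a control-only peak of 0.808 kb at 1.05 kb (chromosome 11, 112780348 to 112781155). Its nearest 2KO peak was 1778 kb away and its next control peak 835.9 kb away. The homeobox gene Barx2 had a peak of 2.70 kb at 1.06 kb, with the next control peak 423.4 kb away. Meis2, a homeobox gene marked in the control list only, had one of 3.95 kb at 5.96 kb, with another control peak 1.43 kb from it. Sox11, a neuronal and mesenchymal factor gene marked in the control list only, had a run of 3 over 38.3 kb (chromosome 12, 27388453 to 27426761). Foxq1, a forkhead factor gene of hair, had one of 5.17 kb at 14.7 kb, and a 2KO peak lay 8.42 kb from it. Tbx4, a hindlimb factor gene, was nearest to a pair of 3.03 and 2.16 kb, at 22.8 and 3.04 kb from a 2KO peak. Foxq1 and Tbx4 were marked in both lists. Olig3 likewise had a peak of 6.54 kb at 13.5 kb, with a 2KO peak 4.77 kb away.

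Hair follicle genes were nearest to 19 of the 505 peaks (3.76%, 2.42 to 5.80), to 1.38% of all control peaks and to 0.370% of narrow shared ones between genes. Of these 19, 8 lay next to Trps1, so that 8 different genes stood behind the count. Lhx2, a LIM homeobox gene of hair follicle progenitors marked in the control list only, had a pair of peaks of 1.22 and 6.14 kb at 2.03 kb from each other. Tcf7l1, which encodes a repressor of Wnt targets in follicle stem cells, had one of 2.18 kb, and Fgf5, the gene that ends hair growth, a pair of 6.36 and 4.85 kb with 2KO peaks 18.5 and 27.4 kb away. Msx1 had a pair as well, of 7.63 and 3.58 kb, at 19.0 and 12.3 kb from a 2KO peak. Of Merkel cell genes, Atoh1 was nearest to 1 peak of 3.97 kb, 66.0 kb away (chromosome 6, 64797271 to 64801239). Merkel cell genes were thus nearest to 0.198% of the 505 peaks, and to 0.386% of all control peaks.

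Genes for secreted signals of the Wnt, Fgf, Bmp and Hedgehog families, and for their antagonists, were nearest to 7 peaks (1.39%, 0.673 to 2.83). They were nearest to 1.79% of all control peaks and to 0.370% of narrow shared ones between genes. The genes included Bambi, which encodes a decoy receptor of Bmp signalling, and Sost, a Wnt antagonist gene of bone, with a peak of 2.55 kb at 23.6 kb. Neurogenic and myogenic basic helix-loop-helix genes were nearest to 3 (0.594%). This was a lower share than the 1.29% of all control peaks and the 2.22% of narrow shared ones between genes. No basal epidermal, epidermal differentiation, endothelial or immune gene and no cadherin gene of the lists was nearest to any of the 505. Over all control peaks these lists were rare as well, at 0% for basal epidermal, 0.0826% for epidermal differentiation, 0.248% for endothelial, 0.0551% for immune and 0.633% for cadherin genes. Dermal fibroblast genes were nearest to 2 peaks (Crabp1 and En1), or 0.396%, against 0.413% of all control peaks. Melanocyte genes were nearest to 2 (Dct and Mitf), or 0.396%, against 0.248%. The dermis was removed before sorting for EpCAM, Sca1 and high α6-integrin, and whether other cell types remained was not tested. The peak nearest to Mitf, the gene of the master factor of pigment cells, measured 3.07 kb and lay 63.3 kb away. The interval between Frmd4b and Mitf held 3 narrow control-only peaks, among 0 2KO and 5 control peaks. A pair of these lay nearer to Frmd4b, and both genes were marked in neither list. Olfactory, vomeronasal, taste and trace amine receptor genes, 7.02% of protein-coding genes, were nearest to 1 peak, next to Vmn1r223 (0.198%), and to 0.193% of all control peaks. Zinc finger Zfp genes were nearest to 10 (1.98%, 1.08 to 3.61), a share close to their 1.96% of genes, and to 1.32% of all control peaks. Solute carrier genes were nearest to 7 (1.39%), against 2.23% of all control peaks. Other G protein-coupled receptor genes were nearest to 5 (0.990%), against 1.16%. Ribosomal protein and housekeeping genes were nearest to 3 (0.594%), against 0.165% of all control peaks and 0.499% of genes.

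The peaks were uneven over chromosomes. Per Mb between protein-coding genes, the genome had 0.329 of them (exact Poisson interval 0.301 to 0.359, n = 505). Chromosome 11 had 0.930 (0.708 to 1.20, n = 59), chromosome 19 0.657 (0.396 to 1.03, n = 19) and chromosome 8 0.533 (0.379 to 0.729, n = 39). Chromosome 16 had 0.0739 (0.0201 to 0.189, n = 4), the X chromosome 0.105 (0.0561 to 0.180, n = 13) and chromosome 17 0.146 (0.0632 to 0.289, n = 8). As a share of all control peaks on the chromosome, they were 19.9% (15.7 to 24.8) on chromosome 11 and 17.8% (13.3 to 23.4) on chromosome 8, 5.71% (2.24 to 13.8) on chromosome 16 and 6.72% (3.45 to 12.7) on chromosome 17, against 13.9% for the genome. On chromosome 19 and the X chromosome this share was near that of the genome, at 14.4% and 15.5%, so that their densities went with those of control peaks as a whole. The intervals treat peaks as independent, which the runs and crowded intervals go against.

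The share of narrow control peaks between genes that had no 2KO peak also differed between chromosomes, around 65.2% for the genome. On the X chromosome it was 13 of 13 (77.2 to 100%), on chromosome 15 87.1% (71.1 to 94.9, n = 31), on chromosome 1 82.1% (67.3 to 91.0, n = 39), on chromosome 3 81.8% (69.7 to 89.8, n = 55) and on chromosome 11 80.8% (70.3 to 88.2, n = 73). On chromosome 4 it was 41.1% (29.2 to 54.1, n = 56), on chromosome 5 42.1% (30.2 to 55.0, n = 57) and on chromosome 17 38.1% (20.8 to 59.1, n = 21). Narrow control peaks at or in genes lay between 45.7% (chromosome 7) and 63.0% (chromosome 13) on the autosomes, a smaller range, and at 76.9% (63.9 to 86.3, n = 52) on the X chromosome. Each autosome had 48 to 177 peaks at or in genes but 9 to 73 between genes, so the 2 ranges carry unequal counting error. The sex of the animals is not given in the sources used here, and its part in the X chromosome values was not tested.

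**Figure D5:**
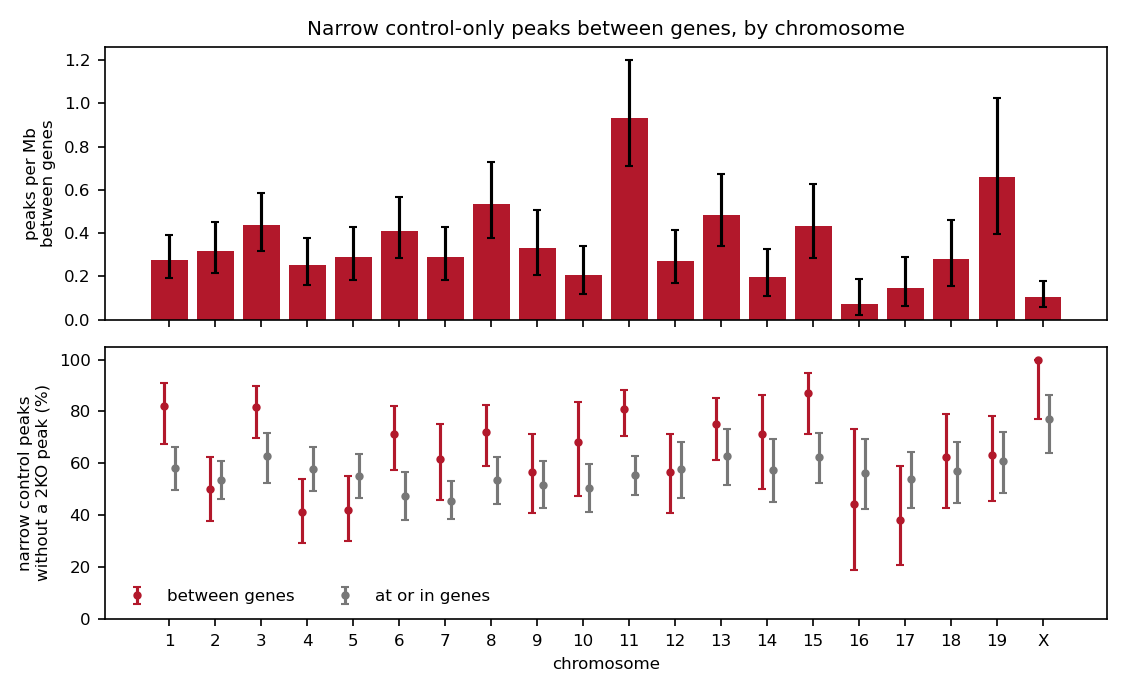
Narrow control-only peaks between genes by chromosome. Top, peaks per Mb between genes with exact 95% Poisson intervals; bottom, percent of narrow control peaks without a 2KO peak, between genes (red) and at or in genes (grey), with 95% Wilson intervals. Chromosome 11 has the highest density, 0.930 per Mb, and on the X chromosome 13 of 13 peaks between genes have no 2KO peak.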

How the data were processed

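The files deposited by the authors hold the positions of H3K27me3 peaks, 1 list for either genotype, without height, signal or score. The submitters' processing notes name Bowtie2 2.3.3.1, SAMtools 1.9 and the build mm10. Which caller and cutoff made the peaks, and whether inputs or pooled replicates went in, is not given in the sources used here. If the 2KO list had them, a stricter cutoff or lower depth would add control-only peaks.

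Printed positions count from 1. Python 3.11.15 computed overlap, distance between facing ends, runs and gene-free intervals, using numpy 2.4.6, pandas 2.3.3 and scipy 1.17.1; figures used matplotlib 3.10.9. Genes were 21631 protein-coding RefSeq genes of GRCm38.p6 on the autosomes and X chromosome. The interval code was tested on simulated peaks. Composition of whole peaks was not computed because no genome was used; promoter windows came from RefSeq.

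The rule, the 23 gene lists and the comparison classes were chosen with earlier results of these data known. Named were the nearest genes of the 10 widest and the 10 farthest peaks, of the 5 fullest intervals and runs, of up to 4 peaks per gene list, and of peaks at each limit; the intervals at Irx3, Calcoco1 and Mitf, the peaks of Sox11, Lhx2 and Msx1, and the RNA genes with sequences were chosen after their values were seen.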

Additional observations from a re-analysis of the deposited data

How the results depend on the processing

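No paired analysis was possible because the files give a single list for either genotype; leaving out a replicate needs lists per library too. Of 136 reruns under 24 other settings, 104 stayed within the counting interval of the value reported, or within 1.5 times the count. The count of 505 was 220 with equal numbers of the widest peaks and 336 with genes extended by 20 kb, and 341 when any annotated gene was avoided. The share of narrow control peaks between genes without a 2KO peak was 60.9% with equal numbers of the widest peaks, 56.0% when a 2KO peak within 20 kb counted as shared, and 68.7 and 70.6% with genes extended by 10 and 20 kb. The median width was 2901 bp under a limit of 5 kb, 3898 bp with no limit and 5117 bp with equal numbers. The median gene distance was 45377.5, 54437.5 and 67773.5 bp with genes extended by 5, 10 and 20 kb. The median distance to a 2KO peak was 435396 bp without peaks within 20 kb of one, and 456328 bp with genes extended by 20 kb. That to another control peak was 38643.5 bp without peaks within 20 kb of a 2KO peak, 32955 bp under a width limit of 5 kb and 57674.5 bp after merging control peaks within 3 kb. The share in runs was 15.6, 20.2, 36.6 and 40% with joins of 5, 10, 50 and 100 kb, 16.3% under 5 kb of width, 38.9% with no width limit, 23.2% with equal numbers and 15.1% after merging. The share next to a control-marked gene was 28.3, 45.5 and 51.1% with peaks within 0, 5 and 10 kb of a gene end, 40.0% with genes extended by 0 kb and 29.95% after merging. The share overlapping a non-coding gene was 21.0% with overlap over at least 50% of a peak required, and 0% by construction when any annotated gene was avoided. Apart from these rules themselves, the causes were not tested. The lists hold no depth, so none of these values shows that a region lost the mark.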
